A study of Mus musculus with 9 samples.

Results

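The cGAS-STING pathway and the interferon regulatory factors around it were followed at the RNA level in senescent mouse fibroblasts in which Rela had been knocked down. The 9 genes were taken by name from the count table, out of 24062 genes listed there: Mb21d1 (now Cgas), Trex1, Tmem173 (now Sting1), Mavs, Tbk1, Ikbke, Irf1, Irf2 and Irf3. The rule goes by gene name and uses no measured value, although earlier results of these data were known when it was drawn up. All 9 were among the 15369 genes that passed the filter on low counts.

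The cells were embryonic fibroblasts of C57BL/6 mice that had been driven into senescence, a lasting exit from the cell cycle, by gamma irradiation. At day 10 after irradiation they were infected with a lentivirus carrying a short hairpin RNA. The shRela-1 and shRela-2 groups each received a different hairpin directed at Rela, which encodes the NF-kB subunit p65, and the shScr group received a scrambled hairpin. There were 3 samples in each group, and every sample, controls included, was irradiated and infected. No unirradiated or uninfected cells are compared here, and the sources used here do not say how many embryos the cells came from.

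The pathway reads DNA that is in the wrong place. cGAS binds double-stranded DNA in the cytosol and makes the messenger cGAMP, which binds STING on the endoplasmic reticulum. STING then recruits the kinase TBK1, with its relative IKKe, and these phosphorylate IRF3, which enters the nucleus and switches on type I interferon genes, while NF-kB is activated alongside. In senescent cells, cytoplasmic chromatin fragments are known to engage cGAS, and the pathway feeds the secretion of inflammatory proteins. Many of these steps act on proteins, by binding, transport and phosphorylation, and RNA counts do not show them.

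Totals ran from 49774667 to 67963506 counts per sample. Rela averaged 13.6 ± 0.487 CPM (counts scaled to a common library size) with shRela-1, 13.9 ± 0.768 CPM with shRela-2 and 85.2 ± 1.84 CPM with shScr (SD, n = 3 each), so that 16.0% of the control level remained with shRela-1 and 16.3% remained under shRela-2. shScr replicate 2 stood apart from the other controls: the chi-square per degree of freedom between its counts and theirs was 112 and 109, against 11.9 to 34.4 in the other replicate pairs of the series. The shScr titles carry a dataset tag that the shRela titles lack, so any batch behind that tag and the hairpin cannot be told apart. Fibroblast markers were abundant, with summed levels of 39302 to 39508 CPM for the 10 genes with shRela-1, 34677 to 35327 with shRela-2 and 34834 to 37392 with shScr. The 13 markers of macrophages and other blood cells, which also use this pathway, summed to 433 to 579 CPM with shRela-1, 375 to 577 CPM with shRela-2 and 440 to 635 CPM with shScr; of these, Cd3e of T cells was at or near 0. Endothelial markers were near 0 (6 genes, sums of 4.01 to 5.79 CPM over the 9 samples). In bulk RNA, fewer cells of a type and less RNA per cell cannot be told apart.

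With shRela-1, 2 of the 9 genes changed against shScr, and both fell: Irf1 and Ikbke. Across all tested genes 24.7% changed (12.3% rose and 12.4% fell), which is 3799 genes, against 6034 with same-numbered samples as a block. With shRela-2, 2 of the 9 changed against shScr, and both rose: Tmem173 and Tbk1. Across all tested genes 30.9% changed (15.4% rose and 15.4% fell). Directly between the hairpins, 4 of the 9 were lower with shRela-1 than with shRela-2 (Irf1, Tmem173, Ikbke and Mavs), where 39.9% of all tested genes differed (19.9% higher and 20.0% lower with shRela-1). A change here means an adjusted p under 0.05. As shares of the 9 genes these counts lie close to the background of each comparison and are no result about the pathway as a whole. The median log2 fold change of the 9 genes was -0.09 with shRela-1 and 0.03 with shRela-2, each beside a median over all tested genes that rounds to 0. The median size of the change was 0.19 with shRela-1, beside 0.16 over all tested genes, and 0.10 with shRela-2, beside 0.18. Both comparisons use the same 3 shScr samples. With same-numbered samples as a block, 3 of the 9 changed with shRela-1, 3 changed under shRela-2 and 5 differed between the hairpins. The added genes are named with their values. Of the 15369 tested genes, the block called 6034 with shRela-1, 6830 under shRela-2 and 7974 between the hairpins. Without it these totals were 3799, 4742 and 6134. Counts given with the block, here and for the lists below, are to be read against the block totals.

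**Figure D1:**
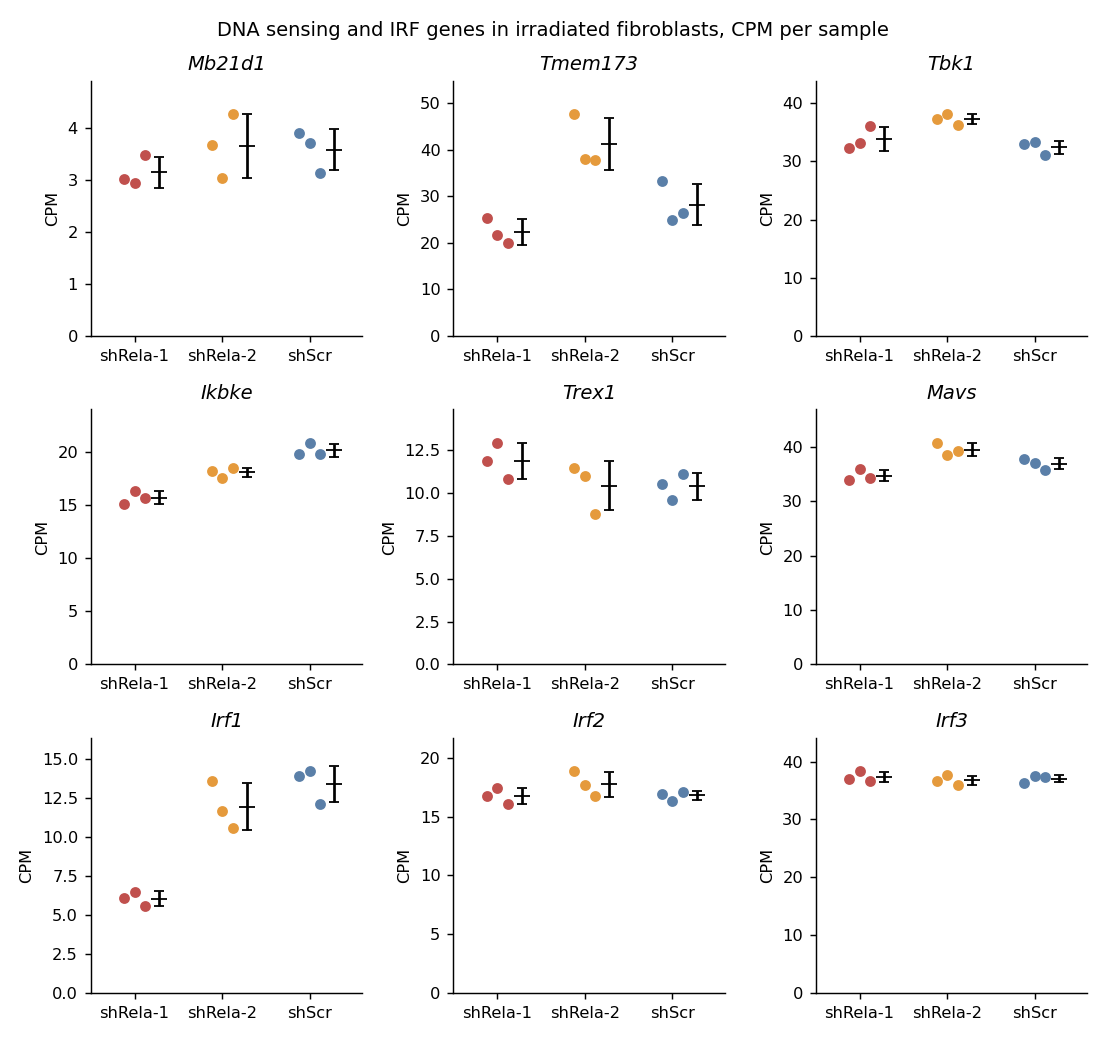
Level of each of the 9 genes in every sample, in CPM with each axis starting at 0; points are samples, and the bar beside them is the mean with its SD (n = 3). Irf1 lies between 5.54 and 6.49 CPM in the shRela-1 samples, below all other samples, and Tmem173 is highest with shRela-2, where all samples lie at or above 37.8 CPM.

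To compare genes with each other, CPM were divided by exonic length. This length joins the exons of all annotated transcripts of a gene: 9018 bases for Ikbke, 7396 for Irf2 and 3976 for Irf1. It can exceed the length of the RNA present, so the order below depends on the annotation. In CPM not divided by length, Ikbke (20.1) and Irf2 (16.8) stood above Irf1 (13.4) with shScr. Mavs (11.0 ± 0.294 CPM per kb), Irf3 (10.8 ± 0.185), Tmem173 (10.3 ± 1.63), Trex1 (9.05 ± 0.669) and Tbk1 (8.29 ± 0.293) were the highest with shScr, and each overlapped its neighbour in this order (SD, n = 3 each). Irf1 followed at 3.37 ± 0.290 CPM per kb, clear of Tbk1 above it and Irf2 below it, and Irf2 (2.27 ± 0.0540) and Ikbke (2.23 ± 0.0681) overlapped. Mb21d1 was lowest at 0.867 ± 0.0958 CPM per kb. The receptor was thus listed at a higher level per length than the DNA sensor in every group. Tmem173 overlapped Tbk1 with shRela-1 (8.16 ± 1.01 CPM per kb, against 8.66 ± 0.513 for Tbk1) and stood first with shRela-2 (15.0 ± 2.04 CPM per kb), where its lowest sample lay above the highest of Mavs. Irf1 (1.52 ± 0.119 CPM per kb) stood below Ikbke (1.74 ± 0.0713) with shRela-1, and Irf1 (3.01 ± 0.384) stood above Ikbke (2.00 ± 0.0509) with shRela-2.

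**Figure D2:**
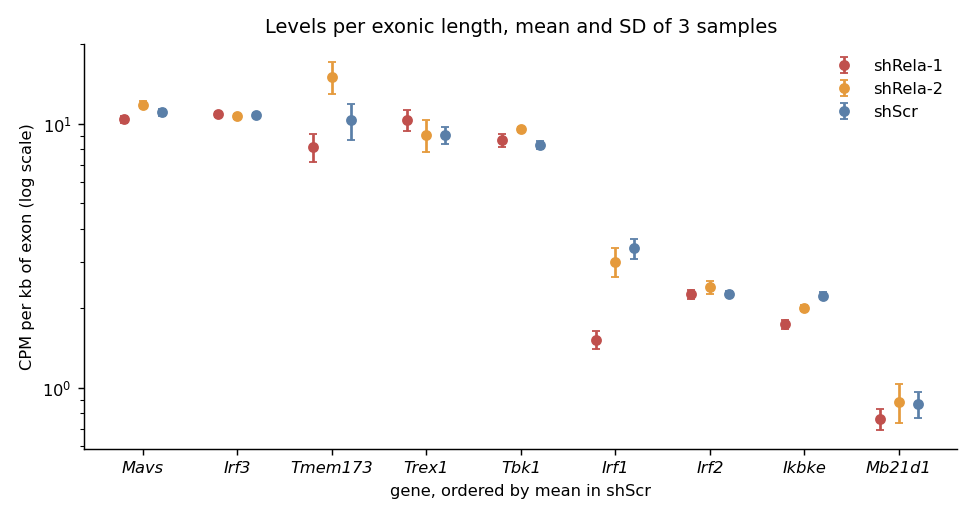
Level of the 9 genes per kb of exon (CPM per kb, log axis), as mean and SD of 3 samples per group, ordered by the shScr mean. Mavs, Irf3, Tmem173, Trex1 and Tbk1 lie near 10 CPM per kb with shScr, Irf1, Irf2 and Ikbke lie lower, and Mb21d1 lies below 1.

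Mb21d1 encodes cGAS, the sensor of cytosolic DNA (chromosome 9, 78430526 to 78443237, minus strand, GRCm38, the build also called mm10). It had 3.01, 2.93 and 3.47 CPM in shRela-1 replicates 1 to 3, 3.67, 3.03 and 4.25 CPM with shRela-2, and 3.89, 3.71 and 3.13 CPM with shScr. The 3 groups overlapped, and no change passed the test: the log2 fold change was -0.19 (95% interval -0.51 to 0.14) with shRela-1, and under shRela-2 it was 0.03 (-0.30 to 0.36). At 187 to 250 counts per sample it was the least deeply counted of the 9, and its intervals were the widest.

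Trex1 encodes a DNA exonuclease that removes cytosolic DNA and so keeps cGAS from its ligand (chromosome 9, 109057933 to 109059734, minus strand). Its 1147 exonic bases all lie within exons of Atrip on the same strand, so the level depends on how reads were divided between the pair and is uncertain. Trex1 had 11.9, 12.9 and 10.8 CPM with shRela-1, 11.5, 11.0 and 8.79 CPM with shRela-2, and 10.5, 9.56 and 11.1 CPM with shScr. All groups overlapped, with a log2 fold change of 0.19 (-0.05 to 0.44) with shRela-1, and under shRela-2 it was 0.00 (-0.24 to 0.25).

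Tmem173 encodes STING, the receptor of cGAMP (chromosome 18, 35733679 to 35740554, minus strand). It had 25.4, 21.7 and 20.0 CPM in shRela-1 replicates 1 to 3, 47.7, 38.1 and 37.8 CPM with shRela-2, and 33.3, 25.0 and 26.3 CPM with shScr. The shRela-2 samples all lay above the controls, while the shRela-1 samples were low but overlapped them, since shRela-1 replicate 1 lay above shScr replicate 2. Tmem173 rose to 146% of the control level with shRela-2 (log2 fold change 0.55 ± 0.128, SE, adjusted p = 0.00815). With shRela-1 the log2 fold change was -0.33 ± 0.129 and did not pass (adjusted p = 0.0886). Between the hairpins it was 54.3% as high with shRela-1 as with shRela-2 (log2 fold change -0.88 ± 0.129, adjusted p = 3.14e-04).

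Replicate 1 held the highest Tmem173 level in each of the 3 groups. Within replicate numbers 1 to 3 the log2 ratio was -0.39, -0.20 and -0.40 for shRela-1 over shScr, and 0.52, 0.61 and 0.52 for shRela-2 over shScr. All 3 pairs were below 0 for shRela-1 and above 0 for shRela-2. With the replicate block, Tmem173 fell with shRela-1 (adjusted p = 1.25e-05), and it rose with shRela-2 (adjusted p = 5.59e-09). Without the block, the shRela-1 call was also made by DESeq2 (adjusted p = 0.0377) and without shRela-1 replicate 1 (adjusted p = 0.0490).

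Mavs encodes the mitochondrial adaptor of the RNA sensors RIG-I and MDA5, which meets the DNA pathway at TBK1 (chromosome 2, 131234063 to 131248025, plus strand). It had 34.0, 35.9 and 34.3 CPM with shRela-1, 40.8, 38.5 and 39.3 CPM with shRela-2, and 37.8, 37.1 and 35.8 CPM with shScr. The hairpin groups did not overlap each other and lay on either side of the controls, with shRela-1 overlapping them. Mavs was lower with shRela-1 than with shRela-2 (log2 fold change -0.19 ± 0.0422, adjusted p = 0.00508). Neither hairpin passed against shScr: the log2 fold change was -0.09 (-0.18 to 0.01) with shRela-1, and under shRela-2 it was 0.10 (0.00 to 0.19).

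Tbk1 encodes the kinase that phosphorylates STING and IRF3 (chromosome 10, 121546455 to 121586787, minus strand). It had 32.3, 33.2 and 36.1 CPM with shRela-1, 37.3, 38.1 and 36.3 CPM with shRela-2, and 32.9, 33.2 and 31.1 CPM with shScr. The shRela-2 samples lay above all others, and shRela-1 overlapped shScr. Tbk1 rose to 115% of the control level with shRela-2 (log2 fold change 0.20 ± 0.0515, adjusted p = 0.0136). It missed the threshold when shScr replicate 3 (adjusted p = 0.0623) or shRela-2 replicate 2 (adjusted p = 0.0544) was left out. With shRela-1 the log2 fold change was 0.06 (-0.05 to 0.18). Between hairpins Tbk1 missed the threshold (log2 fold change -0.14 ± 0.0514, adjusted p = 0.0557) and was lower with shRela-1 under the replicate block (adjusted p = 0.0217) and without shRela-1 replicate 3 (adjusted p = 0.0195).

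Ikbke encodes IKKe, the relative of TBK1 that can also phosphorylate IRF3 and that is itself known as an NF-kB-inducible gene (chromosome 1, 131254343 to 131279606, minus strand). It had 15.0, 16.3 and 15.7 CPM with shRela-1, 18.1, 17.6 and 18.5 CPM with shRela-2, and 19.8, 20.8 and 19.8 CPM with shScr. No group overlapped another: shRela-1 was lowest, shRela-2 lay between, and shScr was highest. Ikbke fell to 77.9% of the control level with shRela-1 (log2 fold change -0.36 ± 0.0565, adjusted p = 0.00107). With shRela-2 it stood at 89.6% and missed the threshold (log2 fold change -0.16 ± 0.0565, adjusted p = 0.0574); it fell under the replicate block (adjusted p = 0.0327), with limma voom (adjusted p = 0.0416) and with the filter on CPM (adjusted p = 0.0412). It was lower with shRela-1 than with shRela-2 (log2 fold change -0.20 ± 0.0567, adjusted p = 0.0155), a call that was lost without shRela-1 replicate 1 (adjusted p = 0.0628).

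Irf1 encodes a transcription factor that binds interferon-stimulated response elements and is induced by interferon-gamma and by NF-kB; Irf2 encodes a relative that binds the same elements and is known mainly as its antagonist. The windows from 250 bases before to 50 bases after the annotated start are shown for both genes because they were the only ones, of 10 windows for 8 of the 9 genes, that matched any of the 3 motifs searched on both strands. Sequences are from RefSeq, build GRCm38.p6, for chr11:53769764-53770063 (Irf1, the first of its 2 annotated starts) and chr8:46739495-46739794 (Irf2), both on the plus strand. Tmem173 had no entry. Capitals mark the matches.

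Irf1 promoter: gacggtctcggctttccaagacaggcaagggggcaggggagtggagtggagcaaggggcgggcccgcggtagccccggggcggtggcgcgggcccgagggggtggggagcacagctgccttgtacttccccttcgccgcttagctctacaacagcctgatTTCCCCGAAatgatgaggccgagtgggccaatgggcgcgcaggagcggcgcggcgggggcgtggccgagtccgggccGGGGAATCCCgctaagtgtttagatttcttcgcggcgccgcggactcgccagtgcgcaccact

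Irf2 promoter: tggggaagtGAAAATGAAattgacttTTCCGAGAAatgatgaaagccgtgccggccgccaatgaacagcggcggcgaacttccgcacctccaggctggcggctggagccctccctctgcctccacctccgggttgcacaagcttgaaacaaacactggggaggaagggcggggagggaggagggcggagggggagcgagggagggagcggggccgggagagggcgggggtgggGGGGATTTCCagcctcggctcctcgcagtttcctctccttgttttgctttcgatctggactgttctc

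The Irf1 window holds a STAT palindrome, TTCNNNGAA, with its first base at position -90 from the start, and a match to the NF-kB site at -13. The Irf2 window holds an interferon response core, GAAANNGAA, at -241, a STAT palindrome at -224 and an NF-kB match at -17. None of the matches overlap. Of 32851 RefSeq promoter windows of the same length, 4.505% held the NF-kB match, 8.56% the response core and 8.298% the STAT palindrome. These are letter matches, and binding was not measured.

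Irf1 (chromosome 11, 53770014 to 53778374, plus strand) had 6.07, 6.49 and 5.54 CPM in shRela-1 replicates 1 to 3, 13.6, 11.7 and 10.6 CPM with shRela-2, and 13.9, 14.2 and 12.1 CPM with shScr. All shRela-1 samples lay far below the rest, and shRela-2 overlapped shScr. Irf1 fell to 45.0% of the control level with shRela-1 (log2 fold change -1.15 ± 0.109, adjusted p = 3.86e-05). With shRela-2 it stood at 89.0% (log2 fold change -0.17, 95% interval -0.40 to 0.07, adjusted p = 0.276). It was 50.5% as high with shRela-1 as with shRela-2 (log2 fold change -0.98 ± 0.109, adjusted p = 4.54e-05), and both calls held without each sample in turn. Rela itself stood at 98.2% with shRela-1 relative to shRela-2 (log2 fold change -0.03, -0.14 to 0.09).

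Irf2 (chromosome 8, 46739732 to 46847458, plus strand) had 16.8, 17.4 and 16.1 CPM with shRela-1, 18.9, 17.7 and 16.8 CPM with shRela-2, and 17.0, 16.4 and 17.1 CPM with shScr. The groups overlapped, and the log2 fold change was -0.00 (-0.14 to 0.13) with shRela-1, and under shRela-2 it was 0.08 (-0.06 to 0.22).

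Irf3, the factor that TBK1 activates (chromosome 7, 44997648 to 45002848, plus strand), was the steadiest of the 9. It had 37.1, 38.3 and 36.7 CPM with shRela-1, 36.7, 37.6 and 36.0 CPM with shRela-2, and 36.3, 37.5 and 37.3 CPM with shScr. The log2 fold change was 0.01 (-0.07 to 0.10) with shRela-1, and under shRela-2 it was -0.01 (-0.09 to 0.08). Its log2 CPM varied over the 9 samples with an SD of 0.0276, at the 0.117 percentile of all tested genes, where Irf1 (SD 0.551) stood at the 90.9 percentile and Tmem173 (0.421) at the 82.1 percentile. Of its exonic bases, 2.56% overlap Bcl2l12 on the opposite strand. Opposite-strand genes also cover 4.87% of the exonic bases of Mb21d1 (Gm8093), 3.40% of those of Irf1 (Gm17334), and 1.76% (Gm28914) and 0.72% (Gm28913) of those of Ikbke; the library kit did not mark strand.

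**Figure D3:**
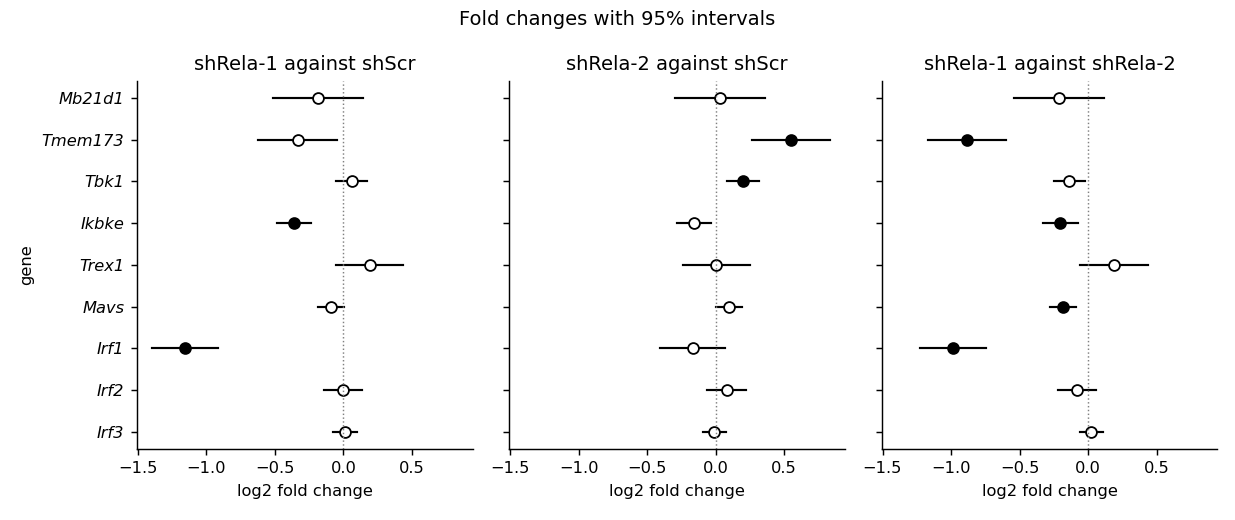
Log2 fold change of each gene in the 3 comparisons with its 95% interval; filled points have an adjusted p under 0.05. Irf1 is at -1.15 and Tmem173 at -0.33 with shRela-1; with shRela-2 they are at -0.17 and 0.55.

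The genes whose profile was most like that of Irf1 over the 9 samples were Doc2b, Notch4 and Suv39h1, with root mean square differences of centred log2 CPM of 0.0696, 0.0750 and 0.117. For Tmem173 they were Fbxl16 (0.0682), Mpp2 (0.0792) and Cyb561 (0.101). These are the genes closest to the 2 members that varied most, and the likeness is a description over 9 samples.

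**Figure D4:**
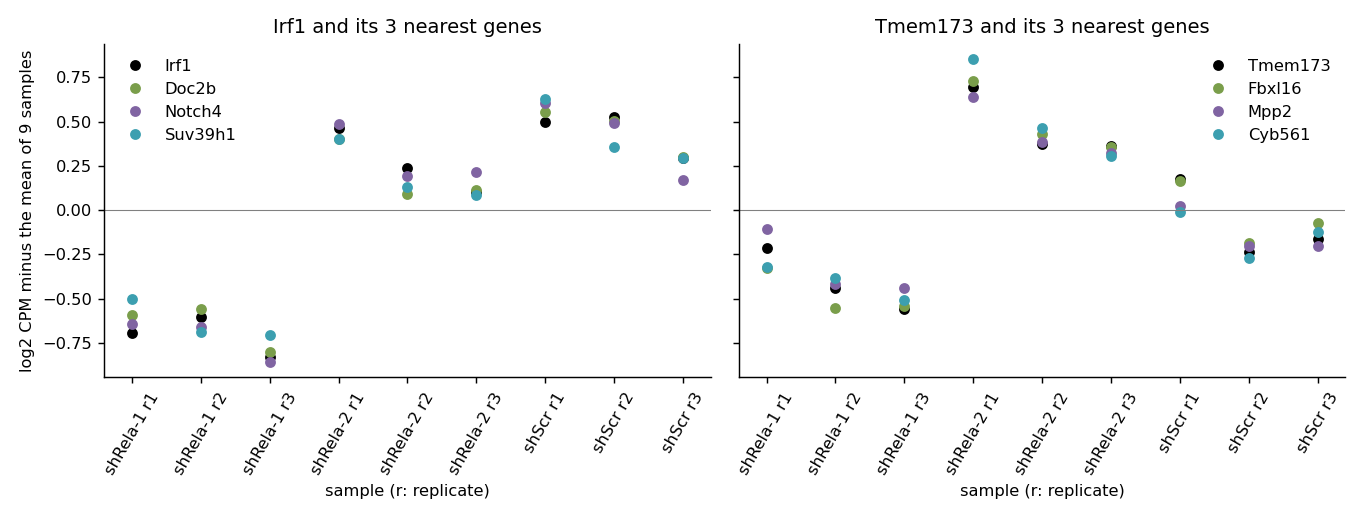
Log2 CPM of Irf1 (left) and Tmem173 (right) and of the 3 genes nearest to each, every gene centred on its mean over the 9 samples, with replicates marked r. The Irf1 set is below 0 in the shRela-1 samples and above 0 elsewhere, and the Tmem173 set is above 0 in all shRela-2 samples.

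An earlier look at these samples had singled out a 7-base word of 3′ UTRs for each hairpin, so the figures that follow are no independent evidence. Of 13880 tested genes with an annotated 3′ UTR, 1185 hold AGGTGTA, and 35.6% of these fell with shRela-1, against 11.0% of the genes without it. With shRela-2, 18.8% of the genes with the word fell, against 16.0% of those without it. Among the 9 genes, Irf1 and Mavs hold AGGTGTA, and so does Suv39h1 among the genes nearest to Irf1. Doc2b and Notch4, which were nearer to Irf1 than Suv39h1, lack it. Ikbke, which also fell with shRela-1, lacks it too, and Mavs was not called with shRela-1 by edgeR (adjusted p = 0.166). The sites are shown because Irf1 is, of the 9 genes, the one that fell furthest with shRela-1. They lie at chr11:53776689-53776695 and chr11:53777072-53777078 (Irf1) and chr2:131247817-131247823 (Mavs), plus strand, GRCm38, with the word in capitals.

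Irf1 site 1: ggggggtctgAGGTGTAaggcagaggc

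Irf1 site 2: ttctgatcagAGGTGTAcactaacatt

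Mavs site: ctccctggtcAGGTGTAggcctcacct

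The word that went with shRela-2, GAAGCTA, is held by 1336 of these genes, of which 36.8% fell with shRela-2, against 14.05% of those without it. None of the 9 genes holds it. The sources used here do not give the hairpin sequences, and the part of these words in the fall of Irf1 was not tested.

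The next list joins other interferon regulatory factors with Irf2bp1, Irf2bp2 and Irf2bpl, which are named for binding IRF2 and are not regulatory factors of that family. Without the block, Irf5 was the only regulatory factor of the list that was called. Each hairpin was accompanied by a fall of 3 of the 8 tested genes and a rise of none (with the replicate block 5 fell under shRela-1 and 4 under shRela-2). Over all tested genes 12.4% fell with shRela-1, and 15.4% fell under shRela-2. Irf5, which acts downstream of Toll-like receptors, had 5.55 ± 0.408 CPM with shRela-1, 4.80 ± 0.0774 CPM with shRela-2 and 7.94 ± 0.144 CPM with shScr (SD, n = 3 each), falling with both hairpins (log2 fold change -0.51 ± 0.0837 with shRela-1, adjusted p = 0.00135, and -0.73 ± 0.0846 under shRela-2, adjusted p = 1.27e-04). Irf2bp2, a corepressor partner of IRF2, also fell with both (-0.20 with shRela-1, -0.28 under shRela-2), Irf2bp1 fell with shRela-1 (-0.34), and Irf2bpl fell with shRela-2 (-0.26). Irf7, which amplifies the interferon response and was chosen after its values were seen, was not called (-0.48 with shRela-1, 0.11 under shRela-2). The median over the list was -0.30 with shRela-1 and -0.19 with shRela-2, where that of all tested genes rounds to 0 in both comparisons.

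The other sensors and adaptors of foreign nucleic acid gave these calls: of 21 tested, 1 rose and 2 fell with shRela-1, and 2 rose and 1 fell with shRela-2, where 24.7% of all tested genes changed with shRela-1 and 30.9% under shRela-2. With the block, 2 rose and 3 fell under shRela-1, and 3 rose and 3 fell under shRela-2. Without shRela-2 replicate 1, 4 fell with shRela-2. Leaving out shRela-1 replicate 3 left 1 gene that fell under that hairpin. The rise of Ticam1 under shRela-1 was lost when shRela-1 replicate 1 or 2, or any shScr sample, was omitted. Ticam1, the TRIF adaptor of Toll-like receptor signalling, rose with both hairpins (0.21 with shRela-1, 0.26 under shRela-2). Tlr3, an endosomal receptor of double-stranded RNA, fell with shRela-1 (log2 fold change -0.78 ± 0.183, adjusted p = 0.0110), as did Nlrx1 (-0.31), a mitochondrial protein that restrains MAVS. Ddx41, a helicase reported to bind DNA, fell with shRela-2 (-0.61 ± 0.0411, adjusted p = 4.70e-06), and Polr3a, the largest subunit of RNA polymerase III, rose with it (0.24). Over the list the median was -0.10 with shRela-1 and -0.00 with shRela-2.

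Among the genes that limit self nucleic acids, 12 were tested, to be read against the same shares of all genes; 1 rose and 1 fell with shRela-1, and 2 rose and 2 fell with shRela-2 (under the block 2 rose and 2 fell with each hairpin). The count of rises under shRela-2 was 1 on omitting shRela-2 replicate 1 or 2, or else shScr replicate 1 or 3. With shRela-2, Rnaseh2c, a subunit of RNase H2, rose (0.40 ± 0.0725, adjusted p = 0.00192) while Rnaseh2b, another subunit, fell (-0.31). Lmnb1, lamin B1 of the nuclear envelope, whose loss is a known mark of senescence, fell with shRela-2 (-0.57 ± 0.112, adjusted p = 0.00304). With shRela-1, Dnase1l1 rose (0.31) and Samhd1, which depletes deoxynucleotides, fell (-0.23). The call of Samhd1 was lost when shRela-1 replicate 1 or 3, shRela-2 replicate 1 or any shScr sample was omitted. That of Dnase1l1 was lost on omitting any shRela-1 sample, shRela-2 replicate 1 or shScr replicate 2 or 3. The count of rises under shRela-1 was 2 when shRela-2 replicate 3 was omitted. Median log2 fold changes of these genes were -0.04 with shRela-1 and 0.04 with shRela-2.

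Genes that act on STING or cGAMP gave calls with both hairpins: of 23 tested, 3 rose and 4 fell with shRela-1, and 8 rose and 3 fell with shRela-2. Over all tested genes 12.3% rose and 12.4% fell with shRela-1, and 15.4% rose and 15.4% fell under shRela-2. With the block, 4 rose and 8 fell under shRela-1, and 8 rose and 4 fell under shRela-2. Whether the 2 counts differ was not tested. Without shScr replicate 1 or shRela-1 replicate 2, 2 fell with shRela-1, and without shScr replicate 3 or shRela-2 replicate 2, 1 fell with shRela-2. Enpp1, the enzyme that hydrolyses cGAMP, fell with both hairpins (log2 fold change -0.43 ± 0.111 with shRela-1, adjusted p = 0.0173, and -0.50 ± 0.112 under shRela-2, adjusted p = 0.00667). With shRela-1, Lrrc8e, a subunit of an anion channel that can carry cGAMP, fell (-1.28 ± 0.252, adjusted p = 0.00415), and Npc1, a cholesterol transporter (0.34), and Rnf26, a ubiquitin ligase of STING (0.25), rose. With shRela-2, Zdhhc18, a palmitoyltransferase known to act on cGAS, rose (0.64 ± 0.0563, adjusted p = 2.11e-05), as did Ulk1 (0.35) and Yipf5 (0.27), which are linked to the phosphorylation and the transport of STING. Over the 23 genes the median log2 fold change was -0.07 with shRela-1 and 0.06 with shRela-2.

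Of 17 tested partners of TBK1 and IKKe, 1 rose and 5 fell with shRela-1 (12.3% and 12.4% of all tested genes), and 4 rose and 2 fell with shRela-2 (15.4% each of all tested genes). With the block, 3 rose and 5 fell under shRela-1, and 5 rose and 2 fell under shRela-2. The count that rose with shRela-2 was 1 when shScr replicate 2 was left out and 0 when shRela-2 replicate 1 was, and the count that fell was 0 without shScr replicate 3, shRela-2 replicate 1 or shRela-2 replicate 2, and 1 on omitting replicate 3 of either hairpin or shScr replicate 1 or 2. The count that rose with shRela-1 was 0 on omitting shRela-1 replicate 3 or shScr replicate 1, and 2 on omitting shRela-1 replicate 2. Dtx4, a ubiquitin ligase that helps degrade TBK1, fell with shRela-1 (-1.00 ± 0.0858, adjusted p = 1.87e-05), and so did Traf2 (-0.38) and Traf3 (-0.24), adaptors of receptor signalling. Sike1, named as a suppressor of IKKe, fell with both hairpins (-0.48 with shRela-1, -0.17 under shRela-2). Ripk1 (0.14) and Tax1bp1 (0.14) rose with shRela-2, and Nap1l1, which is a histone chaperone rather than a partner of these kinases, fell (-0.17). Nap1l1 is nevertheless counted among the 17 and is 1 of the 2 that fell with shRela-2. The 17 genes, Nap1l1 included, had a median of -0.05 with shRela-1 and -0.04 with shRela-2.

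Traf6, Rnf5 and Usp20 fell with shRela-1 and rose with shRela-2, and they were chosen for naming after their values were seen. Traf6, a ubiquitin ligase of Toll-like receptor signalling, had a log2 fold change of -0.59 ± 0.0705 with shRela-1 (adjusted p = 1.93e-04) and of 0.26 ± 0.0697 under shRela-2 (adjusted p = 0.0157). Rnf5, a ubiquitin ligase that directs STING to degradation, had -0.17 with shRela-1 and 0.22 under shRela-2, and Usp20, a deubiquitinase of STING, had -0.23 with shRela-1 and 0.19 under shRela-2. All 3 were lower with shRela-1 than with shRela-2 (log2 fold changes of -0.85 for Traf6, -0.39 for Rnf5 and -0.43 for Usp20, with adjusted p = 5.80e-06, 1.40e-04 and 1.28e-04).

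The end products of the pathway were hardly detected. Ifnb1, the gene of interferon-beta, and Ifna2 had at most 2 counts in any sample, and Ifna1, Ifna4 and Ifna5 had none, so no change in them was detectable at this depth. Of 12 tested genes of interferons, their receptor and its signalling, 3 fell with shRela-1, and 1 rose and 1 fell with shRela-2, beside 24.7% of all tested genes that changed with shRela-1 and 30.9% under shRela-2. With the block, 4 fell under shRela-1, and 2 rose and 3 fell under shRela-2. Jak1, a kinase of the interferon receptor, had 197 ± 3.55 CPM with shRela-1, 265 ± 6.51 CPM with shRela-2 and 255 ± 1.64 CPM with shScr (SD, n = 3 each), and it fell with shRela-1 (-0.37 ± 0.0348, adjusted p = 3.29e-05). Ptpn1 (-0.15), a phosphatase, and Ifnar1 (-0.11), a receptor chain, fell with shRela-1. With shRela-2 Tyk2, the other kinase of the receptor, rose (0.25) and the phosphatase gene Ptpn2 fell (-0.26). The count that fell with shRela-1 was 1 without shScr replicate 3. For these 12 genes the median was -0.06 with shRela-1 and 0.04 with shRela-2.

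Of 30 interferon-inducible genes, 1 fell with shRela-1 and none rose (3 fell with the block), and 2 rose and none fell with shRela-2 (with the block 3 rose and 2 fell); of all tested genes 24.7% changed with shRela-1 and 30.9% under shRela-2. The list's median was -0.31 with shRela-1 and 0.14 with shRela-2. Directly between hairpins, 6 of the 30 were lower with shRela-1 than with shRela-2 and none higher. That share equals the 20.0% of all tested genes that were lower. With the block 13 of the 30 were lower, where 7974 of the 15369 tested genes differed in either direction, against 6134 without it. Cxcl10, a chemokine, fell with shRela-1 (-1.39 ± 0.416, adjusted p = 0.0350), a call lost without shScr replicate 1 or 3 or any of the shRela-1 samples. Without shRela-2 replicate 1, 2 genes of the list fell with shRela-1 and 1 fell under shRela-2. Cd274, the ligand of the checkpoint receptor PD-1 (0.65), and Trim25, a ubiquitin ligase of RIG-I (0.29), rose with shRela-2, and both calls were lost without shScr replicate 3, shRela-2 replicate 1 or shRela-2 replicate 2. Single libraries weighed on these genes. Isg15, chosen after its values were seen, had 35.8, 71.8 and 59.5 CPM in shRela-1 replicates 1 to 3, 137, 53.5 and 47.2 CPM with shRela-2, and 83.7, 55.1 and 65.2 CPM with shScr; replicate 1 was the lowest of its group with shRela-1 and the highest with shRela-2 and shScr.

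**Figure D5:**
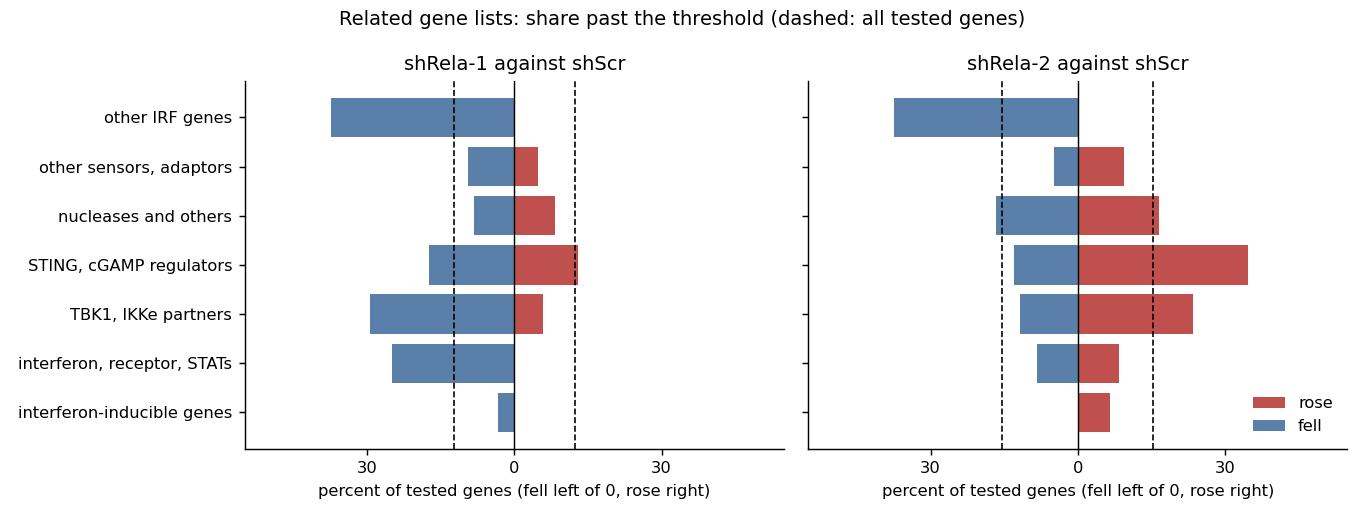
Share of the tested genes of each related list that rose (right of 0) or fell (left of 0) with shRela-1 (left panel) and shRela-2 (right panel) against shScr; dashed lines mark the shares over all tested genes. The lists hold 8 to 30 tested genes, and the list of STING and cGAMP regulators has 8 of 23 genes that rose with shRela-2.

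Of 41 calls on the list genes named above with their hairpin, apart from those seen to be opposite, 25 held without each sample in turn and 16 did not. Those lost were, with shRela-1, Irf2bp2, Ticam1, Nlrx1, Samhd1, Dnase1l1, Enpp1, Ptpn1, Ifnar1 and Cxcl10, and, with shRela-2, Irf2bpl, Sike1, Ripk1, Tax1bp1, Nap1l1, Trim25 and Cd274. Their highest adjusted p ran from 0.0506 (Ptpn1, without shScr replicate 3) to 0.153 (Dnase1l1). Enpp1 with shRela-1 was lost without shScr replicate 1 or shRela-1 replicate 2 or 3 (at most 0.0735).

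Marker levels of other cells moved with the hairpins as well. The 5 neural markers, mostly Tubb3, summed to 59.9 to 64.2 CPM with shRela-1, 125 to 135 CPM with shRela-2 and 89.5 to 90.3 CPM with shScr, the same order of groups as for Tmem173. The 6 epithelial markers summed to 26.7 to 38.8 CPM with shRela-1, 18.4 to 22.3 CPM with shRela-2 and 17.8 to 22.9 CPM with shScr. The 5 muscle markers, mostly Des, summed to 276 to 515 CPM with shRela-1, 164 to 291 CPM with shRela-2 and 190 to 368 CPM with shScr. Among the 11 tested blood markers, shRela-1 gave no call by edgeR (1 rose with the block). Under shRela-2, 1 marker fell (7 with the block), the opposite direction to Tmem173 there. Of all tested genes, 24.7% changed with shRela-1, and 15.4% fell under shRela-2. With the block, 6034 of the 15369 tested genes changed with shRela-1 and 6830 under shRela-2, in either direction. The part of these other cell types in the results was not tested.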

How the data were processed

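The table deposited by the authors holds raw counts for each gene symbol in each sample. Listed in the submitters' processing notes are the build mm10, featureCounts 1.4.6 and Subread, Bowtie2 2.2.6 and TopHat2 2.0.14, with no settings. Per the labels' protocols, a TruSeq v2 kit, which does not mark strand, was used on column-purified RNA. The table holds 2764 values of 1 but 7984 values of 2, so mates of a read pair may have been counted singly, and intervals do not cover this. Nothing in the labels says that replicates came from separate cultures, so the p-values cover the spread among these samples alone, and that spread may be technical.

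Genes were kept by filterByExpr, scaled by TMM (factors 0.975 to 1.02) and fitted with a mean per group over all 9 samples in edgeR 4.0.16 (R 4.3.3; glmQLFit, glmQLFTest, two-sided). P-values were Benjamini-Hochberg adjusted over 15369 genes with a threshold of 0.05. CPM use TMM-scaled totals. SE and 95% intervals come from the fit. The script was tested on simulated counts of independent samples with a fixed spread and no likeness between same-numbered samples. That test checks the code and does not show how well the p-values suit these data. Alternatives used DESeq2 1.42.0, limma 3.58.1 (voom), other scalings and filters (at least 1 CPM in 3 samples for the filter on CPM), the 6 samples compared, each sample left out, and same-numbered samples as a block.

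Replicate numbers come from the titles. Deviations from group means correlated at 0.189 to 0.415 in all 9 pairs of same-numbered samples. In 18 pairs of other numbers they correlated at -0.306 to 0.0459. Deviations within a group sum to 0, so these ranges are not independent of each other. Same-numbered samples thus resembled each other, but the labels do not state that the numbers pair samples. The main fit and its calls leave the numbers out, and the block is given beside them as an alternative.

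The members and lists were chosen with earlier results of these data known. Named genes were all 9 members, Rela, and from each list up to 4 genes called in the same direction with both hairpins and up to 3 per hairpin called with 1, smallest p first, with a mean of at least 1 CPM, plus the 3 genes nearest in profile to each of the 2 most variable members. Irf7, Traf6, Rnf5, Usp20, Isg15 and the interferon genes lie outside this rule and were chosen after their values were seen. Gene positions and exonic lengths come from GENCODE vM21 on GRCm38, whose genes matched all 9 members, and promoters from RefSeq.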

Additional observations from a re-analysis of the deposited data

Results flagged for a closer look

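For 4 of the 9 genes the effect of the hairpins against shScr differed, by the direct test of shRela-1 against shRela-2 in the same fit. Irf1 had a log2 difference of -0.98, Tmem173 of -0.88, Ikbke of -0.20 and Mavs of -0.19. Tmem173 and Mavs had fold changes on opposite sides of 0 with the hairpins, and Irf1 and Ikbke lay below 0 with both. Across all tested genes 39.9% differed between the hairpins.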

How the results depend on the processing

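Of the alternatives on the 9 genes' fold changes, 435 values kept direction and side of the threshold, 8 newly passed it, 3 no longer passed and 13 changed sign, all of these last for uncalled genes near 0. The count of genes changed with shRela-1 was 6034 with the replicate block, against 3799 without it; the block otherwise added Tmem173 (shRela-1), Ikbke (shRela-2) and Tbk1 (between hairpins) and changed no other call of the 9 genes. The number of the 9 that changed with shRela-2 ranged from 1 to 2 without each sample in turn, at 1 without shScr replicate 3 or shRela-2 replicate 2. Changes of sign were, for Irf2 with shRela-1, 0.0023 by upper quartile scaling and from -0.032 to 0.027 without each sample; for Trex1 with shRela-2, -0.0018 with the block and from -0.069 to 0.11 without each sample. Without each sample, Irf3 ranged from -0.0063 to 0.029 with shRela-1 and from -0.026 to 0.0053 with shRela-2, and Mb21d1 from -0.10 to 0.15 with shRela-2. Scaling alternatives moved the median of all genes by less than 0.01 on the log2 scale. Alternatives on the list counts and list genes were chosen after seeing the data. Of those list counts, 69 moved by over 1.5 times and 407 did not. Depth limits Mb21d1 most, with 187 to 250 counts per sample.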
